A study of Homo sapiens with 6 samples.

Results

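The genes described here are 34 genes of the endoplasmic reticulum (ER) and the early secretory pathway: folding chaperones, disulfide isomerases, collagen folding factors, stress sensors, degradation factors and parts of the translocation and vesicle coat machinery. The rule that chose them lists gene names and no measured values, although the list was drawn up with earlier results of these data known. They come from the 58676 gene identifiers in the count table of MRC5 lung fibroblasts. All 34 were found in the table, and all 34 had enough counts to be tested, as did 19072 genes in all.

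RNA-Seq had been performed in MRC5 cells, an established human fetal lung fibroblast line, after 24 h in conditioned media (CM) from a human alveolar type II (ATII) epithelial line. That line carries a transgene fused to an estrogen receptor domain, which 4-hydroxytamoxifen (4-OHT) switches on. Fibroblasts in CM from control ATII cells (control ATII CM, n = 3) were compared with fibroblasts in CM from 4-OHT-treated ATII cells (4-OHT ATII CM, n = 3), to ask how lung fibroblasts respond to signals from the activated epithelium. Both groups therefore received epithelial CM, there was no group in fresh medium or with a chemical ER stressor, and 4-OHT carried over in the CM cannot be told apart from factors the epithelial cells released.

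Proteins bound for the cell surface or the extracellular matrix are folded in the ER, which in lung fibroblasts carries a heavy load of collagen and fibronectin. When unfolded protein accumulates, the sensors IRE1 (encoded by *ERN1*), ATF6 and PERK (encoded by *EIF2AK3*) start the unfolded protein response. IRE1 removes a short intron from *XBP1* mRNA, ATF6 is cut out of the membrane, and PERK slows translation and favours ATF4, and together they raise transcription of chaperones such as *HSPA5* (BiP) and of degradation genes such as *HERPUD1*. *CREB3L1* (OASIS) and *CREB3L2* (BBF2H7) encode transcription factors that sit in the ER membrane and are released by the same proteases as ATF6, and they are known for driving collagen and coat protein genes in matrix-producing cells.

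The promoters of classical unfolded protein response genes hold short elements read by ATF6 and XBP1. A search on both strands of the RefSeq promoter windows (GRCh38.p14, 300 bases each, from 250 before to 50 after the start) covered 30 of the 34 genes, and *PDIA3*, *FKBP10*, *FKBP14* and *SEC24D* were not matched. The ER stress element ERSE (CCAAT, any 9 bases, CCACG) was in windows of 7 of the 30 genes (23.3%) and of 25 of all 27305 genes with a window (0.0916%). ERSE-II (ATTGG, any base, CCACG) was in 3 of the 30 (10.0%) and in 19 of all genes (0.0696%). The core of the unfolded protein response element (TGACGTG) was in windows of *HYOU1*, *SEC23A* and *SEC61A1*, or 10.0% against 2.4% of all genes, and the *HYOU1* match overlapped its upstream ERSE-II. These matches describe the letters only. They do not mark every member that ER stress is known to move, since *DNAJB9* and *MANF*, for instance, had none. The ERSE and ERSE-II matches are printed below. Each is read along the gene's own strand, with the fixed letters in capitals. An element on the opposite strand therefore appears as CGTGG followed by ATTGG or CCAAT.

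*HSPA5* (chr9:125241391-125241409, minus strand): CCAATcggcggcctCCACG
*HSP90B1* upstream (chr12:103930216-103930234, plus strand): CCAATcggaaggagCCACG
*HSP90B1* downstream (chr12:103930321-103930339, plus strand): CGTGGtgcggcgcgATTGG
*CALR* (chr19:12938384-12938402, plus strand): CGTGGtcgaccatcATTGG
*CANX* (chr5:179698778-179698796, plus strand): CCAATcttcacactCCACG
*PDIA6* (chr2:10812853-10812871, minus strand): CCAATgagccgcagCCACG
*CRELD2* (chr22:49918554-49918572, plus strand): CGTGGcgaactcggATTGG
*XBP1* (chr22:28800603-28800621, minus strand): CCAATcgcggagggCCACG
*HYOU1* upstream (chr11:119057380-119057390, minus strand): CGTGGtCCAAT
*HYOU1* downstream (chr11:119057274-119057284, minus strand): CGTGGtCCAAT
*SDF2L1* (chr22:21642114-21642124, plus strand): CGTGGaCCAAT
*HERPUD1* (chr16:56932025-56932035, plus strand): ATTGGgCCACG

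Whole windows are given for *HSPA5*, the textbook target, and for *CREB3L1* and *CREB3L2*, the members that passed the test between the CM. The ERSE of *HSPA5* is in capitals, from 66 to 48 bases before the start. The windows of *CREB3L1* and *CREB3L2* held none of the 3 motifs and so have no capitals. The *CREB3L1* window lies inside the span that the deposited table gives for the gene. For *CREB3L2* the window at the 5′ end of the gene is shown, and a second window within the gene held no match either.

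*HSPA5* (chr9:125241294-125241593, minus strand): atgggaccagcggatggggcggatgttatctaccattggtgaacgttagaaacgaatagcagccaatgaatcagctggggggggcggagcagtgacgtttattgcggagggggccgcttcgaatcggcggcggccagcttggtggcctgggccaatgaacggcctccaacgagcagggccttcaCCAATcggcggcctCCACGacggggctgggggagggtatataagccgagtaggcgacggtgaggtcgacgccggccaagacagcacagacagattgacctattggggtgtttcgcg
*CREB3L1* (chr11:46294909-46295208, plus strand): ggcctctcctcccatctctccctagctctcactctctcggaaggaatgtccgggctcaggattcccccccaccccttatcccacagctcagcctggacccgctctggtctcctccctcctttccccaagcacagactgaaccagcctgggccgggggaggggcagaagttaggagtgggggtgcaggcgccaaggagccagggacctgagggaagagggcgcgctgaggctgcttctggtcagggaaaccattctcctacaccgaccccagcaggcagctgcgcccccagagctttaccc
*CREB3L2* (chr7:138002037-138002336, minus strand): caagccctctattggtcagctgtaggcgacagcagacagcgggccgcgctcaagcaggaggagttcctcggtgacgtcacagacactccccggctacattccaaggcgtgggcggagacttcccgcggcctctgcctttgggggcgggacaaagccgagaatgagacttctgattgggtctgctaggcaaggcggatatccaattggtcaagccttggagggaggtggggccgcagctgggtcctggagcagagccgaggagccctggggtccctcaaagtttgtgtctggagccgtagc

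Fibroblasts in control ATII CM expressed the ER folding machinery strongly (see the plot of levels per kilobase). On the scale of CPM (read counts scaled to library size with TMM factors) per kilobase of exon, *CALR*, encoding the calcium-binding lectin chaperone calreticulin, was the most abundant of the 34 at 656 ± 33.5 (SD, n = 3). *HSPA5* followed at 336 ± 3.53. *SERPINH1*, encoding the collagen chaperone HSP47, stood at 277 ± 7.98 and *HSP90B1* (GRP94) at 276 ± 1.94, a difference smaller than their SDs. The sensors were at the other end of the order, with *EIF2AK3* at 3.52 ± 0.114 and *ERN1* at 1.38 ± 0.139. Together the 34 genes took 1.32%, 1.38% and 1.33% of the counts of the 3 control libraries and 1.33%, 1.31% and 1.33% of those in 4-OHT ATII CM, so that the groups overlapped. The means were 1.34% ± 0.0306 and 1.32% ± 0.008.

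**Figure D1:**
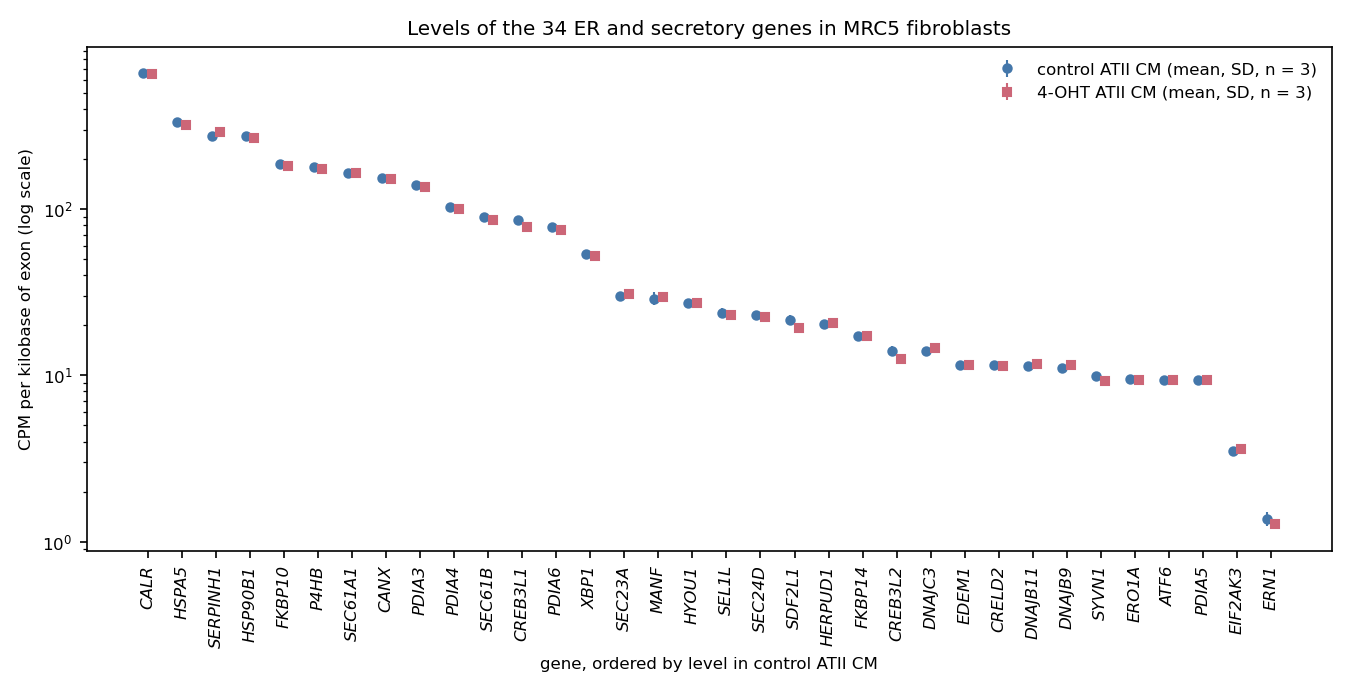
Level of each of the 34 genes in CPM per kilobase of exon (log scale, vertical axis), as mean and SD of 3 libraries in control ATII CM (circles) and in 4-OHT ATII CM (squares), with genes ordered along the horizontal axis by their control level. *CALR* is highest at 656 and *ERN1* lowest at 1.38, and the paired symbols lie close together for every gene.

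In 4-OHT ATII CM, *CREB3L1* and *CREB3L2* were lower, and no chaperone, isomerase, collagen folding factor, degradation gene, sensor, translocation gene or coat gene of the list passed the test in either direction. Of the 34 genes, 0 were called higher and 2 were called lower at an adjusted p below 0.05 in edgeR's quasi-likelihood test, or 5.88% lower. Over all 19072 genes tested, 5.72% were called, 2.95% higher and 2.76% lower, so that the share called lower among the 34 rests on 2 genes. At an unadjusted p below 0.05 there were 6 of the 34 (*HSPA5*, *SDF2L1*, *SERPINH1*, *SYVN1*, *CREB3L1* and *CREB3L2*), and 17.3% of all genes. DESeq2 and limma-voom also called 0 higher and 2 lower.

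The *CREB3L1* mRNA was measured at 345, 359 and 341 CPM in the 3 control libraries and at 305, 321 and 314 CPM in the 3 libraries in 4-OHT ATII CM. The groups did not overlap. The means were 348 ± 9.14 and 313 ± 8.26 CPM, and the level fell by 9.96% (log2 fold change -0.15, SE 0.034, 95% interval -0.22 to -0.079, adjusted p = 0.0135). Without 4-OHT replicate 1 the adjusted p was 0.0927 and without 4-OHT replicate 3 it was 0.0606. All other alternatives kept the call.

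*CREB3L2* was measured at 123, 116 and 132 CPM in control ATII CM and at 114, 109 and 106 CPM in 4-OHT ATII CM. Every treated library was below every control library, although the gap between the nearest libraries was narrow. The means were 124 ± 7.79 and 110 ± 3.79 CPM, and the level fell by 11.3% (log2 fold change -0.17, SE 0.046, 95% interval -0.27 to -0.075, adjusted p = 0.0371). This call was less firm than that of *CREB3L1*: it was lost under 6 of 16 alternatives, with adjusted p from 0.0014 to 0.186, among them leaving out control replicate 3 (0.186), 4-OHT replicate 3 (0.162), 4-OHT replicate 2 (0.126) or control replicate 1 (0.0784), and thinning the libraries to equal depth (0.0526).

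Markers of proliferating cells moved in the same samples. Of the 7 proliferation markers, 6 were called lower in 4-OHT ATII CM, with a median log2 fold change of -0.53, and *MKI67*, a marker of cycling cells, went from a mean of 41.5 to 24.2 CPM. The part of proliferation in the *CREB3L1* and *CREB3L2* result was not tested. In bulk RNA, fewer cells of a type and less RNA per cell cannot be told apart.

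**Figure D2:**
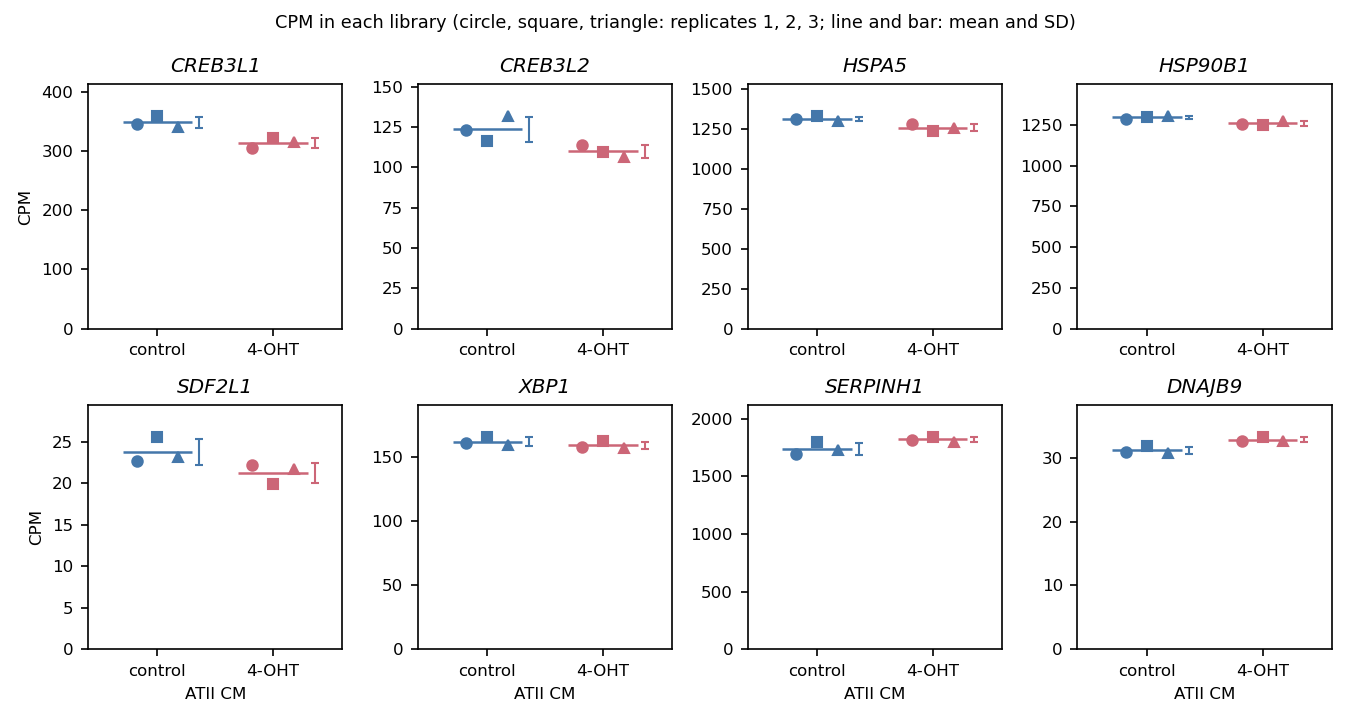
CPM (vertical axes, from 0) of 8 of the genes in each library, with circle, square and triangle for replicates 1, 2 and 3, a line for the mean and a bar for the SD of the 3 libraries of a group. *CREB3L1* and *CREB3L2* are lower in all 3 libraries in 4-OHT ATII CM, and the other 6 genes did not pass the test. Of those, *SDF2L1* is lower by 10.5%, beside 9.96% for *CREB3L1* and 11.3% for *CREB3L2*, and the rest differ by less.

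*SEC23A*, *SEC24D* and *COL1A1* were looked at here as known downstream genes of the CREB3 factors, *COL1A1* after its values were seen. None of them was called, beside 5.72% of all genes. However, *SEC24D* had its groups apart on the lower side, and *COL1A1* leaned lower with an unadjusted p of 0.0066 in edgeR's test. *SEC23A*, encoding a COPII coat subunit and a target of CREB3L2 in cartilage cells, averaged 269.9 CPM in the controls, with a log2 fold change of 0.031 (adjusted p = 0.716) and *SEC24D*, the cargo-binding coat subunit, averaged 229.6 CPM, with a log2 fold change of -0.036 (adjusted p = 0.637). *COL1A1*, a target of CREB3L1 in bone-forming cells, was at 18126, 16651 and 18417 CPM in control ATII CM and at 16314, 16808 and 16770 CPM in 4-OHT ATII CM (log2 fold change -0.092, SE 0.029, adjusted p = 0.0861), so that control replicate 2 lay within the treated range. Of the other genes of the CREB3 and ATF6 families and their proteases, 6 of 7 had enough counts. Of these 6, 0 were called, beside 5.72% of all genes, and 4 had an unadjusted p below 0.05, beside 17.3% of all genes. Among the 4, *ATF6B* had 1, 0 and 1 counts in the controls and 1, 53 and 0 in 4-OHT ATII CM. Its value therefore rests on 4-OHT replicate 2 alone. *NUCB1*, encoding a regulator of ATF6 cleavage, came nearest to the threshold, with its groups apart on the higher side (adjusted p = 0.0501), and was named here after its value was seen.

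**Figure D3:**
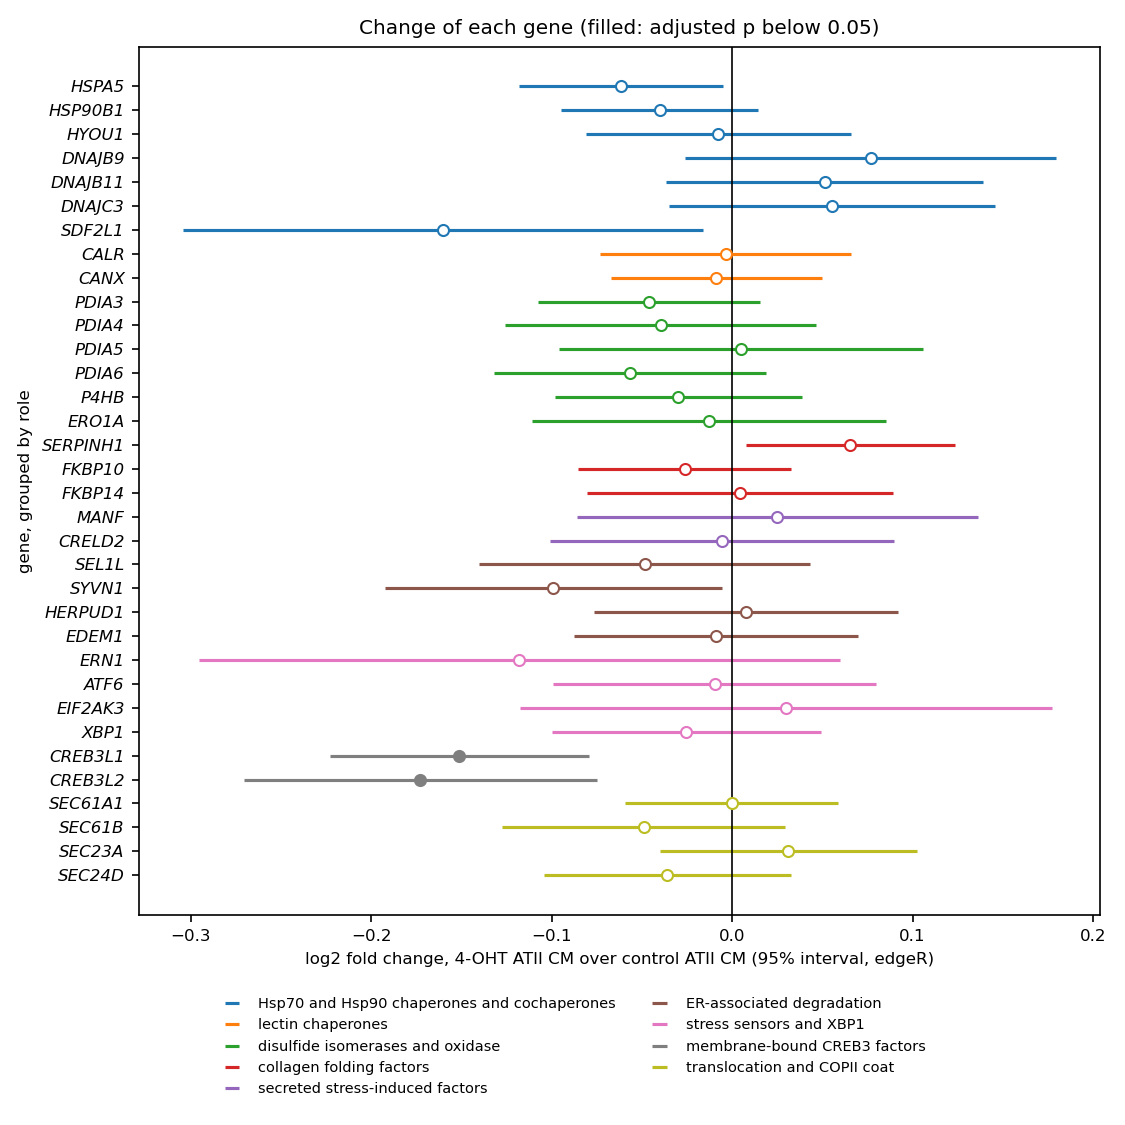
Log2 fold change of each of the 34 genes, 4-OHT ATII CM over control ATII CM (horizontal axis), with its 95% interval from edgeR, in the colour of its role, with filled points for an adjusted p below 0.05. Only *CREB3L1* and *CREB3L2* are filled, and 30 of the 34 intervals lie between -0.2 and 0.2.

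Of the ER Hsp70 and Hsp90 chaperones and their cochaperones, 0 of 7 were called, and 3 had groups apart on the lower side (42.9%, against 10.4% of all genes) and 1 on the higher side (14.3%, against 11.7%). *HSPA5*, the Hsp70 of the ER lumen and the standard readout of ER stress, was at 1309, 1328 and 1301 CPM in control ATII CM and at 1282, 1234 and 1256 CPM in 4-OHT ATII CM. The groups did not overlap, with the treated libraries on the lower side, but the difference did not pass the test (log2 fold change -0.062, SE 0.027, 95% interval -0.12 to -0.0049, adjusted p = 0.238). *HSP90B1*, the Hsp90 of the ER, was at 1287, 1301 and 1304 CPM against 1257, 1249 and 1278 CPM (log2 fold change -0.040, SE 0.026, adjusted p = 0.475), again without overlap. *SDF2L1*, a partner of the ER DnaJ proteins and among the genes most readily induced by ER stress, was at 22.7, 25.6 and 23.1 CPM against 22.2, 19.9 and 21.7 CPM (log2 fold change -0.16, SE 0.068, adjusted p = 0.224). Its groups were apart as well, but its highest library was 1.287 times its lowest, the widest range of the 34 genes. *DNAJB9* (ERdj4), an IRE1 and XBP1 target that acts on BiP, had its groups apart on the higher side, at 31.0, 31.9 and 30.9 CPM against 32.7, 33.4 and 32.8 CPM (log2 fold change 0.077, SE 0.048, adjusted p = 0.468), and its exons overlap *PNPLA8* and *THAP5* on the opposite strand. The remaining members of this role were *HYOU1*, a nucleotide exchange factor of BiP (211 CPM in control ATII CM, log2 fold change -0.0076), *DNAJB11* (65.2 CPM, 0.051) and *DNAJC3*, encoding the PERK pathway inhibitor p58IPK (78.2 CPM, 0.055), and none of them was called.

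Neither of the lectin chaperones, which hold glycoproteins during folding, was called. *CALR* was at 1722, 1884 and 1731 CPM in control ATII CM and at 1745, 1780 and 1798 CPM in 4-OHT ATII CM, with overlapping groups (log2 fold change -0.0037, SE 0.033, 95% interval -0.073 to 0.066, adjusted p = 0.974). The sign of this value turned under 4 alternatives other than leaving out a library. *CANX*, its membrane-bound relative, averaged 960 CPM in the controls, with a log2 fold change of -0.0088.

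Of the disulfide isomerases and the oxidase that recharges them, 0 of 6 were called. *P4HB*, which is both an isomerase and the beta subunit of collagen prolyl hydroxylase, was at 915, 984 and 949 CPM against 907, 928 and 954 CPM (log2 fold change -0.030, SE 0.032, adjusted p = 0.713). *PDIA3* (593 CPM in control ATII CM, log2 fold change -0.046) and *PDIA6* (321 CPM, -0.057) had groups that did not overlap, both lower in 4-OHT ATII CM and both short of the threshold. *PDIA4* (336 CPM, -0.040), *PDIA5* (37.8 CPM, 0.0048) and *ERO1A*, the oxidase (71.4 CPM, -0.013), overlapped between groups. Reads of *PDIA3* may be shared with its pseudogene *PDIA3P1*, whose transcript is 99.3% identical over 74.5% of its length, and *PDIA5* overlaps *SEC22A* on the same strand.

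Among the collagen folding factors, *SERPINH1* was the member nearest to a rise. It was at 1697, 1795 and 1729 CPM in control ATII CM and at 1818, 1843 and 1803 CPM in 4-OHT ATII CM, and the groups did not overlap. The difference did not pass the test (log2 fold change 0.066, SE 0.027, 95% interval 0.0077 to 0.12, adjusted p = 0.213). Without control replicate 2 it was called higher (log2 fold change 0.089, adjusted p = 0.0142), the only call of a higher member in any of the 16 alternatives. *FKBP10* (796 CPM in control ATII CM, log2 fold change -0.026) and *FKBP14* (92.0 CPM, 0.0044), prolyl isomerases of procollagen, overlapped between groups.

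Neither secreted stress-induced factor was called. *MANF*, a small protein retained in the ER and released under stress, was at 66.7, 76.0 and 64.6 CPM against 70.1, 71.9 and 68.5 CPM (log2 fold change 0.025, SE 0.052, adjusted p = 0.871), with the control libraries on both sides of the treated ones. *CRELD2* averaged 59.3 CPM in the controls, with a log2 fold change of -0.0056.

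None of the 4 ER-associated degradation genes passed the test. *SEL1L*, the adaptor of the HRD1 ubiquitin ligase, was at 232, 210 and 239 CPM against 216, 220 and 224 CPM (log2 fold change -0.049, SE 0.043, adjusted p = 0.635). Control replicate 2 was its lowest library, and without that library the adjusted p was 0.0558. *HERPUD1*, a ligase cofactor that ER stress induces strongly, was at 103, 103 and 110 CPM against 103, 106 and 109 CPM (log2 fold change 0.0077, SE 0.040, adjusted p = 0.951). *SYVN1*, encoding HRD1 itself, averaged 54.2 CPM in the controls, with a log2 fold change of -0.099, and shares exon bases on the same strand with *FAU*, which had 28458 counts to its 7066. *EDEM1*, which picks out misfolded glycoproteins, had 78.0 CPM and a log2 fold change of -0.0091.

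The sensors and *XBP1* overlapped between groups. *XBP1* was at 161, 166 and 159 CPM in control ATII CM and at 157, 162 and 157 CPM in 4-OHT ATII CM (log2 fold change -0.025, SE 0.035, adjusted p = 0.785). *ERN1* (14.9 CPM, log2 fold change -0.12, 95% interval -0.30 to 0.059), *ATF6* (74.1 CPM, -0.0098) and *EIF2AK3* (19.1 CPM, 0.030) were not called, and the *ERN1* value was -0.036 without control replicate 1 and -0.17 without control replicate 2. The gene counts do not measure the activity of the sensors, since IRE1 and PERK are switched on by phosphorylation and ATF6 by cleavage. The cut that IRE1 makes is printed here to show what the counts leave out: the 26-base intron of *XBP1* (capitals) with 20 bases on either side, annotated in GENCODE release 44 between the unspliced and spliced transcripts. Reads from both forms count for the same gene.

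*XBP1* intron (chr22:28796124-28796149, minus strand): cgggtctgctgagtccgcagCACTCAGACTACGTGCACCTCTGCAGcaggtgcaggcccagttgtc

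Of the translocation and COPII coat members, 0 of 4 were called. *SEC61A1*, the channel through which new chains enter the ER, was at 762, 789 and 783 CPM against 774, 778 and 781 CPM (log2 fold change -0.00038, SE 0.028, adjusted p = 0.997), the smallest range across libraries of all 34 genes, with the highest library 1.035 times the lowest. *SEC61B* averaged 106 CPM in the controls, with a log2 fold change of -0.049.

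Over the whole list the differences were small and the data precise. The median log2 fold change was -0.011, beside -0.0020 over all genes tested, and the median absolute value was 0.034, beside 0.12. The highest library of a member was 1.085 times its lowest as the median, beside 1.272 over 17738 genes with no zero, and the biological coefficient of variation was 3.3% as the median, beside 6.99% over all genes, so the small absolute differences of these abundant genes are read against smaller errors. The 95% interval lay within -0.2 to 0.2 for 30 of the 34 (88.2%), against 27.7% of all genes, and the exceptions were *SDF2L1*, *ERN1*, *CREB3L1* and *CREB3L2*. All genes include many at lower levels, with a median of 8.54 CPM beside 14.4 CPM for the lowest member. In the related lists described below the share was 73.1%, with 82.8% in the translocon list and 82.4% in the collagen modification and export list. None of the 10 genes with an ERSE or ERSE-II match was called, beside 5.72% of all genes, so that 0 of 10 is near the share over all genes. Of the 10, *HSPA5*, *HSP90B1*, *SDF2L1* and *PDIA6* had groups apart on the lower side.

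In sign, 24 of the 34 genes were lower and 10 higher in 4-OHT ATII CM, or 70.6% lower against 50.5% of all genes. The groups did not overlap for 8 genes on the lower side (23.5%, against 10.4% of all genes) and for 2 on the higher side (5.88%, against 11.7%). The 8 were *HSPA5*, *HSP90B1*, *SDF2L1*, *PDIA3*, *PDIA6*, *CREB3L1*, *CREB3L2* and *SEC24D*, and the 2 were *DNAJB9* and *SERPINH1*. These are counts with no test, over genes that share the same 6 libraries.

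Control replicate 2, which the second principal component set apart from the other libraries, bore on these small differences. It was the highest of the 6 libraries for 12 of the 34 genes, or 35.3% against 19.9% of all genes, including *HSPA5*, *CALR*, *PDIA4*, *PDIA6*, *P4HB*, *MANF*, *SDF2L1* and *CREB3L1*. Control replicate 3 was the highest for 10 genes, or 29.4% against 16.1% of all genes. Without control replicate 2 the log2 fold change went from -0.0037 to 0.040 for *CALR*, from -0.040 to 0.012 for *PDIA4*, from -0.030 to -0.0031 for *P4HB*, from -0.057 to -0.020 for *PDIA6*, from 0.025 to 0.096 for *MANF*, from -0.16 to -0.11 for *SDF2L1* and from -0.062 to -0.053 for *HSPA5*. Other genes went down, from -0.049 to -0.10 for *SEL1L*, from -0.12 to -0.17 for *ERN1*, from -0.013 to -0.051 for *ERO1A* and from -0.0098 to -0.039 for *ATF6*. None of these was called, and the median of the 34 was -0.013. *CREB3L1* (-0.13, adjusted p = 0.00895) and *CREB3L2* (-0.22, adjusted p = 0.0014) were called lower without control replicate 2 too.

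**Figure D4:**
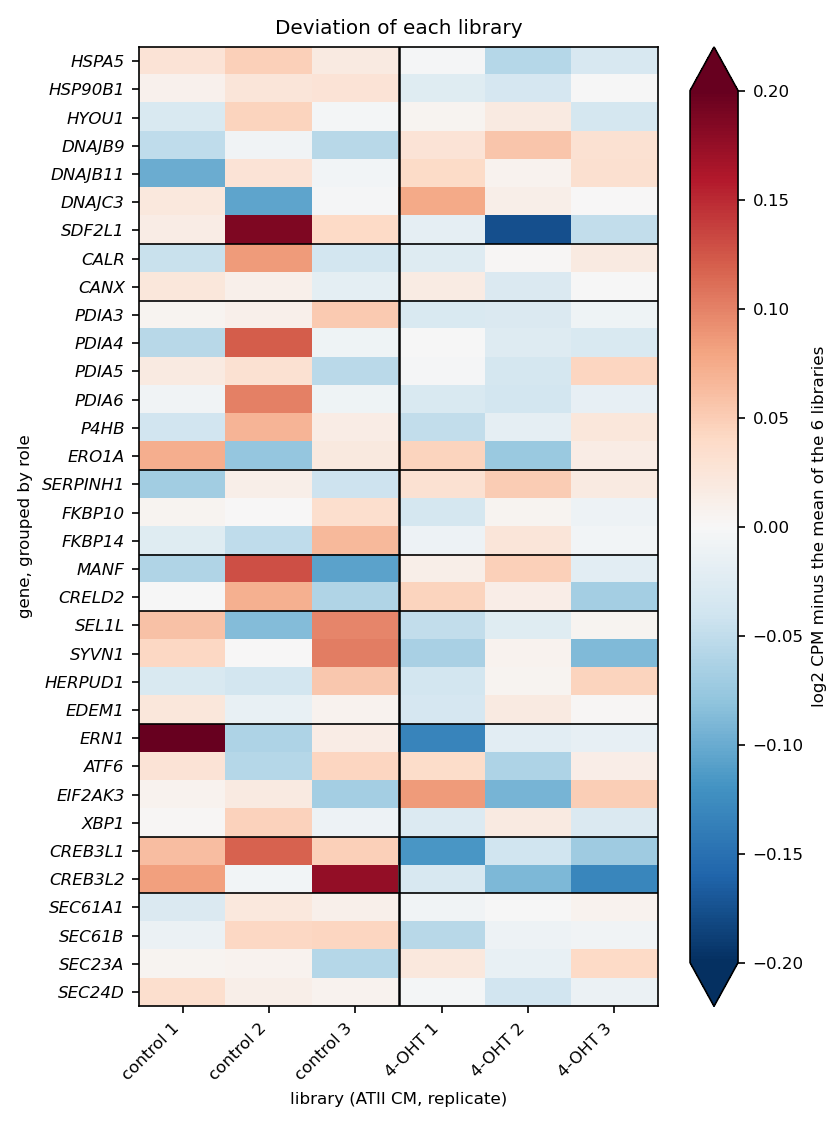
Deviation of log2 CPM in each of the 6 libraries (columns) from the gene's mean over the 6 libraries, for the 34 genes grouped by role (rows, separated by lines), on a colour scale from -0.2 to 0.2 with values beyond it in the end colours. *CREB3L1* is above its mean in all 3 control libraries and below it in all 3 libraries in 4-OHT ATII CM, and control replicate 2 holds the highest value of 12 rows.

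Related genes, from 10 lists of 181 genes that do not include the 34, were counted in the same way. Of the 175 with enough counts, 6 were called higher (3.43%) and 4 lower (2.29%), beside 2.95% and 2.76% of all genes. An unadjusted p below 0.05 was found for 57 of the 175, against 17.3% of all genes, and the groups did not overlap for 35 on the higher and 23 on the lower side, against 11.7% and 10.4% of all genes. In the PERK and ATF4 branch, 1 of 13 was called, while 8 of 13 had an unadjusted p below 0.05 and 7 had groups that did not overlap, 5 higher and 2 lower. *CEBPB*, encoding a transcription factor with many inputs besides PERK, was at 146, 145 and 149 CPM against 164, 157 and 163 CPM (log2 fold change 0.13, adjusted p = 0.0377). The call was lost when any library but control replicate 2 was left out and when the libraries were thinned (adjusted p = 0.079), with adjusted p over the alternatives from 0.00955 to 0.182. The textbook outputs of this branch were not called: *ATF4* had a log2 fold change of 0.042 (adjusted p = 0.501), *DDIT3* (CHOP, the pro-apoptotic factor) -0.18 (0.233), *TRIB3* -0.12 (0.101) and *CHAC1* -0.058 (0.638). Without control replicate 2, *TRIB3* was called lower (log2 fold change -0.13, adjusted p = 0.0494). *ATF3*, a general stress-responsive factor, was at 20.1, 19.7 and 17.6 CPM against 22.7, 22.1 and 22.4 CPM (log2 fold change 0.23, adjusted p = 0.0547). It was not called here but was in 5 of 16 alternatives, among leave-one-out fits only without control replicate 2, with adjusted p from 0.0181 to 0.274. *DDIT3* shares exon bases with *MARS1*, on the opposite strand and with far more counts.

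The smallest adjusted p of the related genes was in the translocon list. *TRAM1*, encoding a membrane protein beside the SEC61 channel that helps chains to enter, was at 882, 903 and 872 CPM in control ATII CM and at 1074, 1046 and 1053 CPM in 4-OHT ATII CM. The groups were well apart (log2 fold change 0.26, SE 0.028, adjusted p = 4.6e-05), and it was called in 16 of 16 alternatives. Its relative *TRAM2*, linked to collagen synthesis, was lower, at 356, 355 and 347 CPM against 332, 313 and 326 CPM (log2 fold change -0.12, adjusted p = 0.0393), and like *CEBPB* lost its call when any library but control replicate 2 was left out (adjusted p up to 0.192). *SPCS2*, a signal peptidase subunit, was higher, at 59.1, 59.7 and 68.7 CPM against 74.5, 69.7 and 74.5 CPM (log2 fold change 0.22, adjusted p = 0.0231), and was not called without control replicate 1, 4-OHT replicate 1 or 4-OHT replicate 3 (adjusted p up to 0.108). A pseudogene copy could take part of its reads. The other 26 of 29 genes of this list were not called.

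In the remaining lists, *CNPY4*, which helps fold cell surface receptors, was higher at 26.1, 26.3 and 27.9 CPM against 32.7, 32.6 and 31.3 CPM (log2 fold change 0.26, adjusted p = 0.00697) and was called in 16 of 16 alternatives. Its exons overlap *TAF6* on the opposite strand. *QSOX1*, a secreted sulfhydryl oxidase, was higher (log2 fold change 0.13, adjusted p = 0.01), except without 4-OHT replicate 2 or 4-OHT replicate 3 (adjusted p up to 0.0659). *HSPA9*, the mitochondrial Hsp70, was lower (log2 fold change -0.12, adjusted p = 0.0307), and its call was lost when any library but control replicate 2 was left out (adjusted p up to 0.13). Of 18 other degradation genes, 17 collagen modification and export genes and 22 other COPII genes, 0 were called.

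The secretory clients, abundant matrix proteins that the ER of these cells folds, had 3 of 10 genes called, beside 5.72% of all genes. They differed among themselves. *COL3A1* was at 4952, 4685 and 4906 CPM in control ATII CM and at 5385, 5610 and 5484 CPM in 4-OHT ATII CM (log2 fold change 0.18, adjusted p = 0.000463). *FN1*, encoding fibronectin, was at 7503, 5651 and 7274 CPM against 5538, 5416 and 5440 CPM (log2 fold change -0.32, adjusted p = 0.0107), and *COL6A3* was at 5717, 4187 and 5628 CPM against 4155, 4395 and 4259 CPM (log2 fold change -0.28, adjusted p = 0.046). Control replicate 2 lay near the treated range for *FN1* and within it for *COL6A3*. The *FN1* call was lost without control replicate 3 or 4-OHT replicate 2 and in DESeq2 (adjusted p up to 0.0891), and the *COL6A3* call in DESeq2 and when any library but control replicate 2 was left out (adjusted p up to 0.256). The 10 clients took 6.3%, 5.65% and 6.27% of the control counts, beside 5.68%, 5.8% and 5.77% of those of the treated libraries, with overlapping groups.

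**Figure D5:**
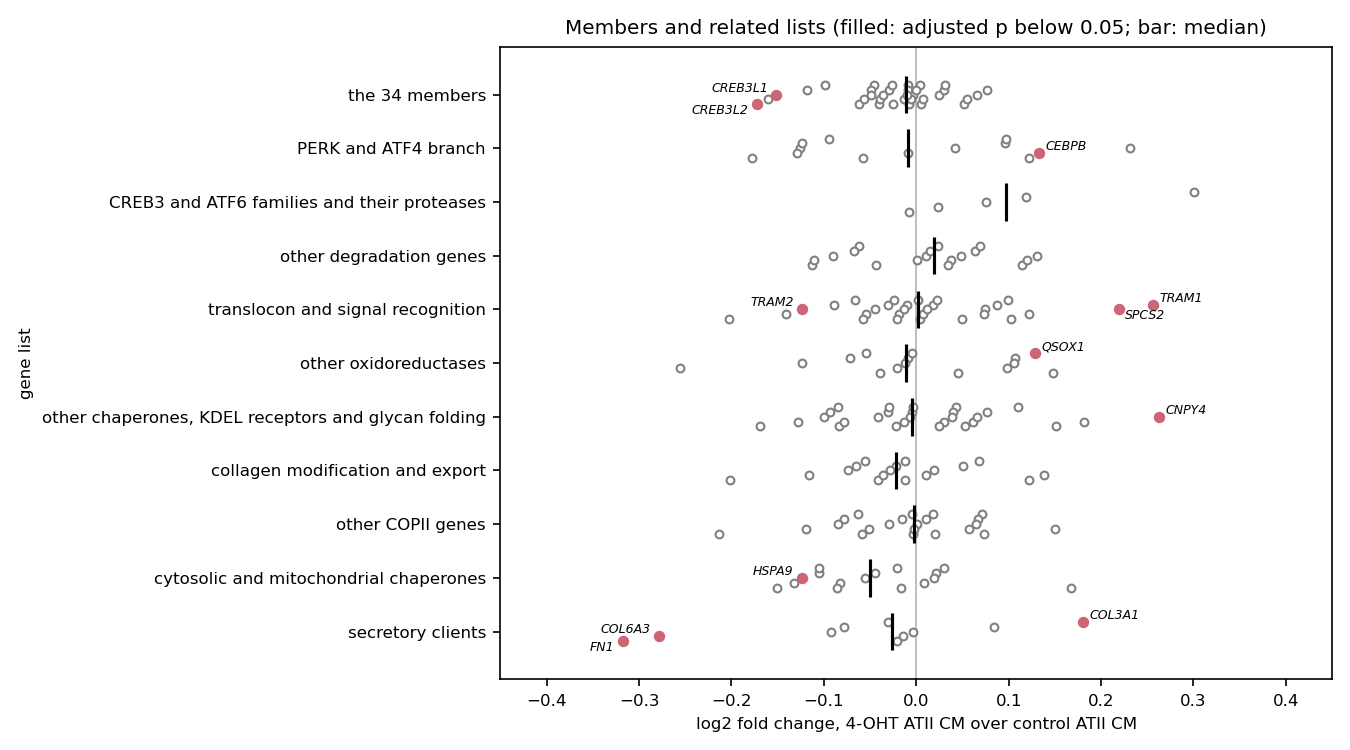
Log2 fold change, 4-OHT ATII CM over control ATII CM (horizontal axis), of the 34 genes and of each related list (rows), with filled points and names for genes with an adjusted p below 0.05, open points for the rest and a bar for the median. All 34 genes lie between -0.173 and 0.0769, with *SDF2L1* at -0.16 among the lowest though not called, *TRAM1* and *CNPY4* stand to the right, and *FN1* and *COL6A3* to the left, while 2 related genes beyond 0.45 are not drawn.

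All 11 fibroblast markers were tested, and *COL1A1* had the highest level of them, with 17731 CPM in control ATII CM. The markers themselves differed between the CM: 4 of 11 were called higher (*COL3A1*, *PDGFRA*, *DCN* and *LUM*) and 1 lower (*VIM*), beside 2.95% and 2.76% of all genes. Of 17 epithelial and ATII markers, 7 reached the filter and 0 were called, and the defining ATII genes *SFTPC*, *SFTPB* and *NKX2-1* had 1, 1 and 0 counts over the 6 libraries. The keratin genes *KRT18*, *KRT8* and *KRT19* were detected, with means of 53.5, 32.5 and 7.73 CPM in the controls and 51.8, 33.7 and 6.59 CPM in 4-OHT ATII CM. Among endothelial markers *TEK* was called higher, at a mean of 167 CPM against 128 CPM in the controls, while *PECAM1* and *CDH5* had 0 counts, and of 6 leukocyte markers 1 reached the filter, *CD14*, at a mean of 0.766 CPM in the controls and 1.48 CPM in 4-OHT ATII CM (groups apart, adjusted p = 0.0597). Library totals were 17691849 to 26389449 counts.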

How the data were processed

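RNA-Seq counts from 6 MRC5 libraries, grouped by the sample labels, were analysed. The identity of the transgene in the epithelial line is not reported here. The table the authors deposited holds raw counts per gene, made with Trim Galore, HISAT2 2.1.0 on GRCh38 and featureCounts 1.6.5, and merged exon lengths. The annotation release, strand setting and handling of multi-mapped reads are not given in the sources used here, so genes that overlap or have near copies are uncertain. Counts of 45 identifiers listed on X and Y were added (58721 lines, 58676 identifiers), and GENCODE release 44 named 16843 of the 19072 genes tested. No group label says whether replicates were separate cultures, so p values measure only the spread between these libraries.

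Genes with at least 10 counts over the 6 libraries were tested with edgeR 4.0.16 (R 4.3.3), using TMM factors, a quasi-likelihood test between the groups without covariates, and Benjamini-Hochberg adjustment over all genes tested, with a threshold of 0.05. Standard errors were derived from the F statistic, and 95% intervals from the t distribution of the fit. Library totals were 17691849 to 26389449, with a median of 22273931, and the common biological coefficient of variation was 4.36%. DESeq2 1.42.0, limma-voom (limma 3.58.1), other scaling factors and filters, a replicate block, a GC content and length offset, thinning and leaving out each library were the 16 alternatives. The scripts were tested on simulated data. Near copies were transcripts aligned with minimap2 2.31 at 95% identity or more over 50% or more of the transcript.

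The 34 members, the 10 related lists and the marker lists were chosen with earlier results of these data known. All members are described: those called, *HSPA5*, *HSP90B1*, *CALR*, *DNAJB9*, *HERPUD1*, *SDF2L1*, *XBP1*, *SERPINH1* and the most abundant member of each role with values per library, and the rest with level and fold change. Of each related list the called genes with the smallest p, up to 4, were named, with *DDIT3*, *ATF4*, *ATF3*, *CHAC1* and *TRIB3*. *COL1A1*, *MKI67* and the markers named at the end were added to these after their values were seen. A planned look at ER retention signals in the member proteins was not run.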

Additional observations from a re-analysis of the deposited data

How the results depend on the processing

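Over 16 alternatives, 492 of 544 values of the 34 genes kept direction and side of the threshold, 8 lost the call, 1 gained it (*SERPINH1*) and 43 changed sign, these in 14 genes whose log2 fold change was at most 0.0397 in size. Members called lower were 1 with the replicate block and 1 when libraries were thinned to the smallest, and 0 to 2 when 1 library was left out. Members called higher were 0 to 1 when 1 library was left out. The median log2 fold change of the members was -0.0024 with no filter on low counts, -0.024 with the GC content and length offset, -0.024 with that offset and the replicate block, and -0.028 to -0.013 when 1 library was left out. Related genes called higher were 10 with limma-voom, 15 with no filter and 4 to 12 when 1 library was left out, the highest without control replicate 2. Related genes called lower were 10 with limma-voom, 8 with no filter, 7 with filterByExpr, 2 with the replicate block, 10 with the offset, 8 with the offset and block, and 0 to 15 when 1 library was left out, the highest again without control replicate 2. The cause was not tested.

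Same-numbered libraries deviated together with correlations of -0.104 to -0.0145, so the numbers were not taken to pair them. The replicate block left *CREB3L1* called lower and *CREB3L2* not (adjusted p = 0.054), took the calls of *CEBPB* (0.0553), *HSPA9* (0.0555) and *TRAM2* (0.0548), and moved the calls over all genes from 563 higher and 527 lower to 502 and 483. With 1 library left out, calls over all genes ranged from 289 higher and 244 lower without 4-OHT replicate 2 to 696 higher and 834 lower without control replicate 2.

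Sign changes were as follows. *HYOU1* was 0.0012 with no filter, 0.0023 with the offset and 0.0022 with offset and block. *CALR* was 0.00028 with limma-voom, 0.0051 with no filter, 0.0054 with the offset and 0.0058 with offset and block. *FKBP14* was -0.024 with the offset, -0.023 with offset and block and -0.0070 when thinned. *HERPUD1* was -0.0022 with the offset and -0.0020 with offset and block. *SEC61A1* was 0.00030 with limma-voom, 0.00010 with upper-quartile factors and 0.0085 with no filter. *ERO1A* was 0.0080 when thinned, and *CRELD2* 0.0032 with no filter. With 1 library left out, *ATF6* ranged from -0.039 to 0.017, *CALR* from -0.029 to 0.040, *CANX* from -0.026 to 0.0014, *CRELD2* from -0.043 to 0.027, *EDEM1* from -0.022 to 0.0097, *EIF2AK3* from -0.0038 to 0.080, *ERO1A* from -0.051 to 0.020, *FKBP14* from -0.018 to 0.034, *HERPUD1* from -0.015 to 0.032, *HYOU1* from -0.027 to 0.013, *MANF* from -0.028 to 0.096, *PDIA4* from -0.079 to 0.012, *PDIA5* from -0.028 to 0.022 and *SEC61A1* from -0.017 to 0.0099.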
